A study of Mus musculus with 4 samples.

Results

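The genes described here are 8 genes of cholesterol synthesis and of the SREBP2 pathway, taken by symbol from the 32285 genes listed in each of 4 single-cell RNA-seq libraries of mouse pancreatic islets. They are *Hmgcs1*, *Idi1*, *Fdps*, *Fdft1*, *Sqle* and *Lss*, which encode enzymes of the pathway, and *Insig1* and *Srebf2*, which encode regulators of it. All 8 symbols matched 1 gene each. The libraries came from islets of wildtype mice (WT) and of mice homozygous for an R200H substitution knocked into the endogenous *Pax4* gene (HH), which encodes an islet transcription factor. All were males of C57BL6/N background, and per the study's methods HH and wildtype mice were littermates. Chow-fed mice (SCD) were 12 weeks old, and mice given a high-fat diet (HFD) for 4 weeks were 16 weeks old. Each of the 4 groups (WT SCD, HH SCD, WT HFD and HH HFD) had 1 library, made from pooled islets of 2 to 3 mice, so a difference between groups cannot be told apart from one between libraries, nor can the effect of HFD be told apart from that of age. A single amino acid substitution cannot be read from counts per gene, so the genotype labels were not checked here.

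Cells make cholesterol from acetyl-CoA through the mevalonate pathway. SREBP2, the product of *Srebf2*, is held in the endoplasmic reticulum by INSIG proteins while sterols are plentiful, and when sterols are scarce it is cleaved and enters the nucleus, where it switches on the enzymes of the pathway, *Insig1* and its own gene. The transcripts of this set therefore usually move together and are often read as a measure of sterol demand. In the pancreatic β cell, cholesterol is a component of insulin granule membranes, and both excess and lack of cholesterol are known to impair insulin secretion.

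Of the 8 genes, 5 had a promoter window in the RefSeq table of GRCm38.p6 (*Hmgcs1*, *Idi1*, *Lss*, *Insig1* and *Srebf2*), and *Sqle*, *Fdft1* and *Fdps* are named only. A motif of the sterol regulatory element, TCACNCCA, was searched on both strands of the 250 bases before each start site. It was found once in *Hmgcs1* and once in *Srebf2*, and in 3.67% of all 32851 windows. The reverse of the CCAAT box, ATTGG, was present in each of the 5 windows, and the CCAAT box on either strand in 33.8% of all windows. A GC box, CCGCCC or its reverse, was also present in each of the 5 windows and in 32.7% of all windows. No match overlapped another. The windows of the genes with the sterol motif are shown because *Hmgcs1* and *Srebf2* had the lowest ratios of HH to WT among the genes tested in insulin-dominant cells on HFD. Both stretches lie on the plus strand and end before the annotated gene start, at chr13:119690101-119690350 for *Hmgcs1* and chr15:82147019-82147180 for *Srebf2*, and the capitals mark the sterol motif (TCACCCCA) and the CCAAT box (ATTGG).
Hmgcs1: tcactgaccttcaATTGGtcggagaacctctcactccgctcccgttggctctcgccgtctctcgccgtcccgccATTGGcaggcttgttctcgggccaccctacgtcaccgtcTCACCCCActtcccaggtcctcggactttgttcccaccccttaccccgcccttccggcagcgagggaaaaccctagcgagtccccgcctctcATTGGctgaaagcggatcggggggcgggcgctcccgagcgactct
Srebf2: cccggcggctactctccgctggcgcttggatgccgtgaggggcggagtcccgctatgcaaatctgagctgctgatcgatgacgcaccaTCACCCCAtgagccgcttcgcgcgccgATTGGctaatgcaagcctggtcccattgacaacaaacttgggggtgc
The sterol motif began 137 bases before the RefSeq start site in *Hmgcs1* and 162 bases before it in *Srebf2*. A match of letters is a description of these windows, and binding of SREBP2 was not measured. Whether the motif goes with the ratio of HH to WT was not tested. *Idi1*, whose window lacked the motif, had a ratio near that of *Srebf2* on HFD but a mean under 10 CPM.

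In the GENCODE M21 annotation of GRCm38, *Hmgcs1* lies on chromosome 13 at 119690379 to 119708260 and *Idi1* on the same chromosome at 8885501 to 8892451. *Fdps* lies on chromosome 3 at 89093588 to 89101959, *Fdft1* on chromosome 14 at 63145150 to 63179578, and *Lss* on chromosome 10 at 76531588 to 76557138. *Sqle* lies on chromosome 15 at 59315077 to 59331192, *Srebf2* on the same chromosome at 82147181 to 82205379, and *Insig1* on chromosome 5 at 28071363 to 28078662. *Fdps* overlaps Gm43738 and Gm22935 on its own strand, and *Srebf2* overlaps Gm49502 and Mir33. How reads in those stretches were counted was not checked.

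The 4 libraries held between 68011082 and 104810105 unique molecular identifiers (UMIs, each one counted transcript). The filters and the removal of predicted doublets left 3092, 3082, 1999 and 4231 cells (WT SCD, HH SCD, WT HFD, HH HFD), and the WT HFD library stood apart because only 38.3% of its barcodes passed, against 61.6% to 67.8% in the others. Libraries shared 6 to 11 barcodes in pairs, of which at most 4 were kept cells. Cells were grouped by their dominant hormone, and 2011, 1980, 1129 and 2836 cells were insulin-dominant in the order above. The defining transcription factors followed the hormones. *Mafa* stood at 195 to 396 CPM (the UMIs of a gene scaled to the same total in every sum) in insulin-dominant cells and at most 11.5 CPM in the other hormone classes, *Irx2* at 85.9 to 119.9 CPM in glucagon-dominant cells against at most 15.8 CPM, and *Hhex* at 252 to 312 CPM in somatostatin-dominant cells against at most 2.59 CPM. Counts were summed over the cells of a class in a library, and a lower value may reflect fewer expressing cells or less RNA per cell, which a sum cannot tell apart.

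Whether the 8 genes differed between islet cell types was asked first, since for this comparison the 4 libraries serve as samples. Among the hormone classes, insulin-dominant cells had the highest levels of *Fdps*, *Sqle*, *Lss*, *Insig1* and *Srebf2* in every library once hormone genes were left out of the total. No gene of the set was lower in them by edgeR at an unadjusted p under 0.05, nor by DESeq2. Levels between classes are given as CPM computed without hormone and mitochondrial genes, because hormone transcripts took 58.3% to 61.1% of UMIs in insulin-dominant cells, 33.4% to 38.5% in glucagon-dominant cells, 27.5% to 29.5% in somatostatin-dominant cells and 48.7% to 52.0% in pancreatic polypeptide (PP)-dominant cells. Values are listed in the order WT SCD, HH SCD, WT HFD and HH HFD.

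*Sqle*, squalene epoxidase, a rate-limiting enzyme of the later pathway, had 161, 149, 119.7 and 107 CPM on that scale in insulin-dominant cells and 70.7, 62.1, 27.9 and 28.5 CPM in glucagon-dominant cells. Its levels in somatostatin-dominant cells were 62.7, 54.2, 41.8 and 44.8 CPM, and in PP-dominant cells 42.9, 47.1, 41.8 and 58.1 CPM. The insulin-dominant values did not overlap those of any other hormone class. The TMM-scaled log2 difference from glucagon-dominant cells was 1.37 ± 0.14 (SE, n = 4 libraries), with an adjusted p of 1.5e-08 by edgeR's quasi-likelihood test with Benjamini-Hochberg adjustment over all genes. *Insig1*, whose protein retains the SREBP precursor in the endoplasmic reticulum, had 183, 172, 147 and 120.1 CPM in insulin-dominant cells and 79.3, 67.3, 36.5 and 24.9 CPM in glucagon-dominant cells, again without overlap. Its log2 difference was 1.47 ± 0.14 against glucagon-dominant cells and 1.75 ± 0.15 against somatostatin-dominant cells.

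*Fdps*, farnesyl diphosphate synthase, had 218, 206, 179.8 and 148 CPM in insulin-dominant cells. In glucagon-dominant cells it had 85.6, 103, 81.3 and 75.5 CPM, and in somatostatin-dominant cells 63.2, 46.8, 43.3 and 45.5 CPM. The order insulin, glucagon, somatostatin held in all 4 libraries, with log2 differences of 0.96 ± 0.09 between the first pair and 0.99 ± 0.11 between the second pair (adjusted p of 2.9e-09 and 1.6e-07, edgeR quasi-likelihood). *Lss*, lanosterol synthase, which closes the sterol ring system, had 24.0, 20.3, 20.6 and 17.6 CPM in insulin-dominant cells and 14.3, 13.8, 11.4 and 6.05 CPM in glucagon-dominant cells. *Fdft1*, squalene synthase, had 51.0, 49.2, 40.0 and 36.6 CPM in insulin-dominant cells and 34.5, 34.1, 23.2 and 24.9 CPM in glucagon-dominant cells. The ranges of *Lss* and *Fdft1* did not overlap between these classes, with log2 differences of 0.71 ± 0.17 and 0.44 ± 0.11 (adjusted p of 8.0e-04 and 0.00235, edgeR quasi-likelihood).

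The 3 genes with the lowest ratios of HFD to SCD in insulin-dominant cells did not pass between insulin- and glucagon-dominant cells. *Hmgcs1*, cytosolic HMG-CoA synthase, an early enzyme of the mevalonate pathway, had 209.9, 207, 83.9 and 51.0 CPM in insulin-dominant cells and 161, 175, 46.0 and 31.7 CPM in glucagon-dominant cells. It was higher in insulin-dominant cells in each of the 4 libraries, but the classes overlapped across libraries and the log2 difference of 0.30 ± 0.15 did not pass the threshold (adjusted p of 0.0815, edgeR quasi-likelihood). *Srebf2* itself had 109, 92.1, 78.4 and 53.7 CPM in insulin-dominant cells against 86.9, 74.7, 49.1 and 43.4 CPM in glucagon-dominant cells (0.24 ± 0.10, adjusted p of 0.0550). *Idi1*, isopentenyl diphosphate isomerase, did not pass either, at 52.9, 46.6, 30.01 and 20.8 CPM against 58.4, 54.4, 15.3 and 16.7 CPM (-0.062 ± 0.14, adjusted p of 0.720).

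By count, 5 of the 8 genes were higher in insulin- than in glucagon-dominant cells, where 31.8% of all 11635 genes tested were and 61.7% differed in either direction. All 8 were higher than in somatostatin-dominant cells (30.6% of all genes, 60.4% in either direction) and 6 of 8 higher than in PP-dominant cells (27.9% of all genes, 52.6% in either direction), the exceptions being *Idi1* and *Fdft1*. Between glucagon- and somatostatin-dominant cells 3 of 8 were higher in the former (*Idi1*, *Fdps* and *Srebf2*), against 21.9% of all genes (44.1% in either direction). That count ran from 2 to 5 when 1 library was left out and was 1 without the library term. None was lower in any of the 3 contrasts of insulin-dominant cells, where 29.9%, 29.8% and 24.6% of all genes were. The call of *Idi1* over somatostatin-dominant cells (0.42 ± 0.16, adjusted p of 0.0305) was lost without WT SCD, without HH SCD and without WT HFD. Those of *Hmgcs1* (0.54 ± 0.18) and *Srebf2* (0.47 ± 0.13) over PP-dominant cells were lost without WT SCD, and that of *Hmgcs1* also without HH SCD. The direction of several genes depended on the scale. On plain CPM, with hormone genes counted, *Hmgcs1*, *Idi1* and *Fdft1* were lower in insulin- than in somatostatin-dominant cells in all 4 libraries and *Srebf2* was lower than in glucagon-dominant cells in all 4, whereas *Fdps*, *Sqle* and *Insig1* were higher in insulin-dominant cells than in every other hormone class in all 4.

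**Figure D1:**
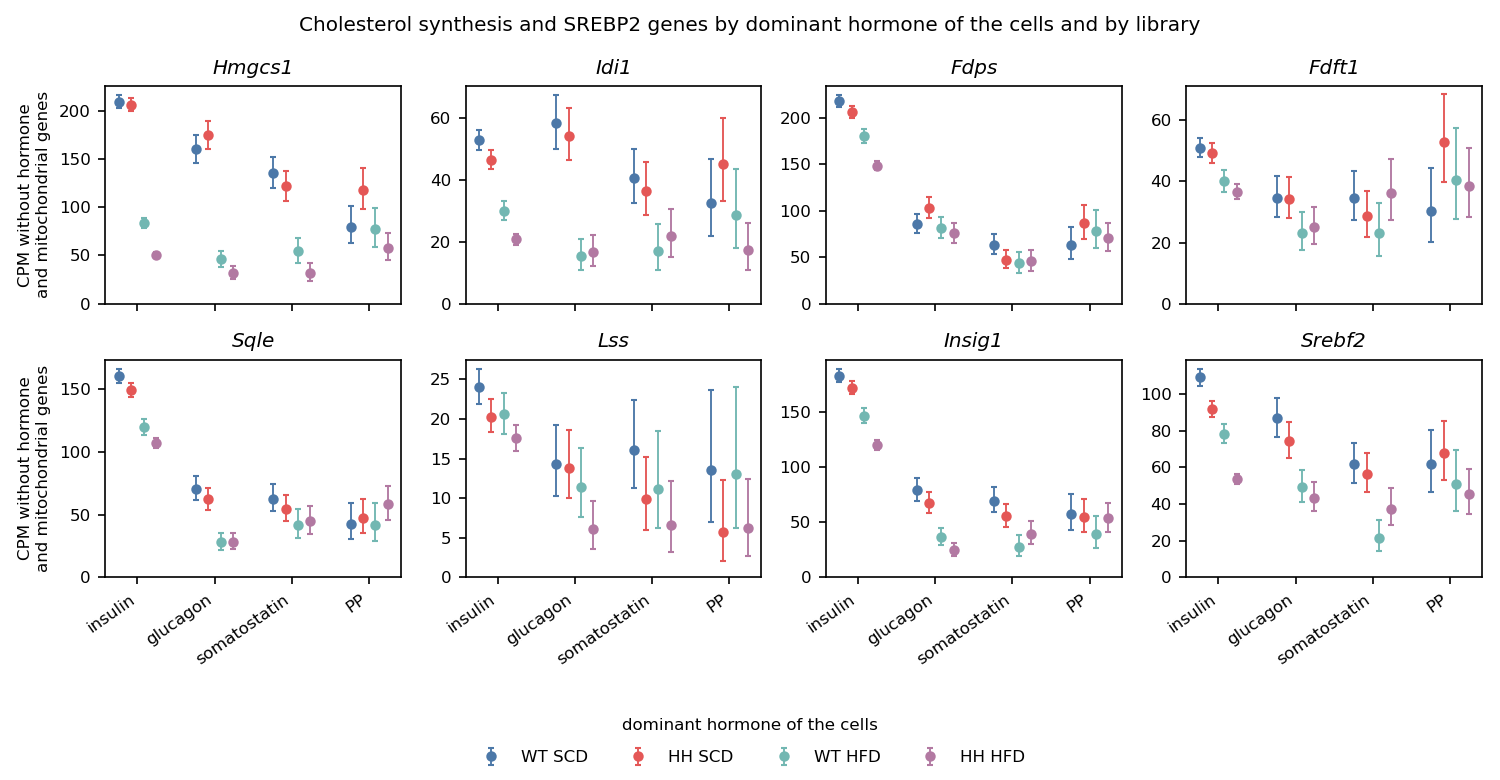
Level of each of the 8 genes (y axis, CPM without hormone and mitochondrial genes) by dominant hormone of the cells (x axis, PP is pancreatic polypeptide) in the 4 libraries (colours). Bars are 95% exact Poisson intervals, which cover counting error only. *Sqle* in insulin-dominant cells stood between 107 and 161 CPM, above every other hormone class, and *Hmgcs1* stood at 209.9 CPM in WT SCD and 51.0 CPM in HH HFD.

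**Figure D2:**
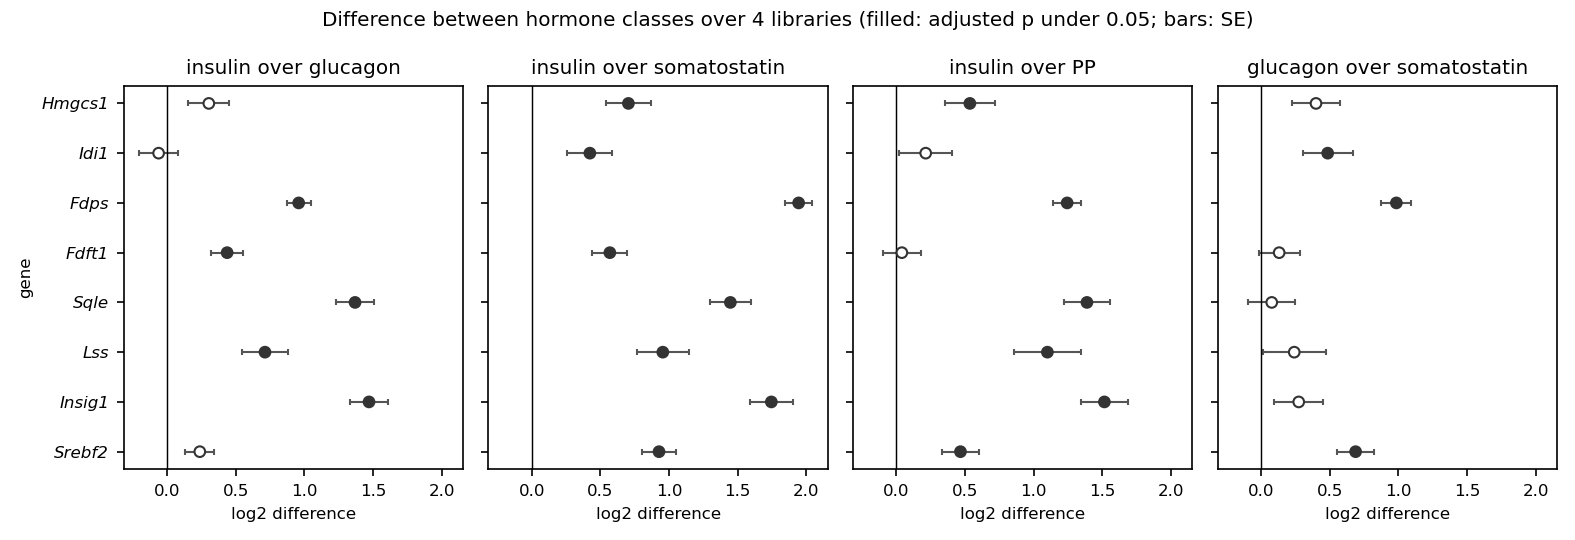
TMM-scaled log2 differences of the 8 genes between hormone classes (x axis), with SE bars over 4 libraries. Filled points have an adjusted p under 0.05 in edgeR's quasi-likelihood test, and *Insig1*, *Sqle* and *Fdps* were the farthest to the right in the 3 panels of insulin-dominant cells.

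Endothelial-like cells, the non-endocrine cells with enough counts in all libraries, held the set unevenly. *Sqle* had 0, 1, 6 and 2 UMIs there and *Lss* had 2, 1, 2 and 0 UMIs. The 0 UMIs of *Sqle* in WT SCD allow up to 3.94 CPM, and its highest value, 5.22 plain CPM in WT HFD, compares with 37.2 to 58.3 plain CPM in insulin-dominant cells. *Insig1* had 51.2, 47.8, 58.4 and 47.5 CPM in endothelial-like cells without hormone and mitochondrial genes, below the 120.1 to 183 CPM of insulin-dominant cells. On plain CPM its 45.5 to 55.7 in endothelial-like cells overlapped the 41.8 to 66.4 in insulin-dominant cells. Without hormone genes all 8 genes were higher in insulin-dominant cells in all 4 libraries, and on plain CPM 3 of 8 were, since hormone transcripts made at most 1.95% of UMIs in endothelial-like cells. These cells entered no test.

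The diets were compared next, within each genotype. Values are plain CPM from here on, a ratio has a 95% exact binomial interval that covers counting error only, and no p-value is given for a ratio of 1 library to another. A gene was called past the fold when its log2 ratio was at least 0.32 from 0 in either direction, its interval left out no change and its mean was at least 10 CPM. In insulin-dominant cells the 8 genes together had 366 CPM in WT SCD and 248 CPM in WT HFD, a log2 ratio of -0.56 (interval -0.60 to -0.52). In HH they had 329 CPM in SCD and 193 CPM in HFD, a log2 ratio of -0.77 (interval -0.80 to -0.74). The median over the members tested was -0.46 in WT and -0.52 in HH, beside -0.036 and -0.072 over all genes. Of the 7 genes with a mean of at least 10 CPM, 6 were past the fold and lower on HFD in WT, where 13.0% of all 6171 genes were, and 7 of 7 in HH, where 17.9% of 5807 genes were. None was higher, against 6.56% and 7.09% of all genes. All 8 genes were below 0 in both genotypes under each of the scalings tried.

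*Hmgcs1* had the lowest ratio of the set in both genotypes. Its level was 76.1 CPM in WT SCD and 29.8 CPM in WT HFD, 2.56-fold lower (log2 -1.35, interval -1.46 to -1.25), and 72.2 CPM in HH SCD and 17.7 CPM in HH HFD, 4.07-fold lower (log2 -2.02, interval -2.12 to -1.93). *Idi1* followed, with 19.2 CPM on SCD and 10.6 CPM on HFD in WT (log2 -0.85) and 16.3 and 7.25 CPM in HH (log2 -1.17). Both HFD libraries were thus below both SCD libraries for each of these genes.

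The other 4 enzymes of the set had ratios nearer to 0 in these cells. *Fdps* had 79.0 CPM on SCD and 63.8 CPM on HFD in WT (log2 -0.31, just inside the fold) and 71.8 and 51.5 CPM in HH (-0.48). *Fdft1* had 18.5 and 14.2 CPM in WT (-0.38) and 17.2 and 12.7 CPM in HH (-0.43). *Sqle* had 58.3 and 42.5 CPM in WT (-0.46) and 52.0 and 37.2 CPM in HH (-0.48). Each of these 3 genes had its lowest level in HH HFD and its highest in WT SCD. *Lss*, under the minimum of 10 CPM in every library, had 8.72 and 7.31 CPM (-0.25) and 7.09 and 6.12 CPM (-0.21).

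Among the regulators, *Insig1* had 66.4 CPM on SCD and 52.0 CPM on HFD in WT (log2 -0.35) and 60.1 and 41.8 CPM in HH (-0.52). *Srebf2* had 39.6 and 27.8 CPM in WT (-0.51) and 32.1 and 18.7 CPM in HH (-0.78). The HFD levels of every gene but *Lss* were below both SCD levels, and for *Lss* the WT HFD value of 7.31 CPM lay above the HH SCD value of 7.09 CPM. Whether the ratios differ between genotypes was not tested, since each rests on 1 library per group.

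Other measures differed between the libraries in the same cells. The summed level of 10 dissociation stress genes was 3096 and 3271 CPM in the WT and HH libraries on SCD and 2605 and 1527 CPM on HFD, with all 10 detected in each. Mitochondrial transcripts made 5.45% and 5.23% of UMIs on SCD and 5.01% and 4.07% on HFD. Both were thus lower on HFD in each genotype. The median UMIs per insulin-dominant cell were 26385, 26207, 29785 and 24181.5, higher on HFD in WT and lower on HFD in HH. The part of these measures in the result was not tested.

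Glucagon-dominant cells showed a larger difference between the diets. The 8 genes together had 359 and 358 CPM on SCD (WT and HH) and 167 and 146 CPM on HFD, log2 ratios of -1.10 (interval -1.23 to -0.98) in WT and -1.29 (interval -1.42 to -1.17) in HH. In WT 6 of the 7 genes tested were past the fold and lower (18.2% of all genes), and in HH 7 of 7 (18.0% of all genes). None was higher, against 7.85% and 9.09% of all genes. *Hmgcs1* had 97.7, 107, 26.4 and 18.4 CPM, 3.70-fold lower in WT and 5.83-fold lower in HH. *Idi1* had 35.5, 33.3, 8.81 and 9.70 CPM, 4.03- and 3.43-fold lower. *Insig1* had 48.3, 41.2, 21.02 and 14.4 CPM and *Sqle* 43.0, 38.0, 16.0 and 16.5 CPM. For these 4 genes the SCD and HFD libraries did not overlap. *Fdps* was the exception in WT, with 52.1 CPM on SCD and 46.8 CPM on HFD (log2 -0.16, interval -0.43 to 0.11). The summed dissociation stress genes moved the other way from those of insulin-dominant cells, from 3096 and 3858 CPM on SCD to 8005 and 8046 CPM on HFD, and mitochondrial transcripts went from 5.59% and 5.43% of UMIs to 4.01% and 4.07%. The part of these measures in the result was not tested.

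In somatostatin-dominant cells 6 of 7 genes tested were past the fold and lower in WT (7.88% of all genes) and 4 of 7 in HH (8.67% of all genes). *Hmgcs1* had 91.2, 81.5, 37.6 and 21.2 CPM there and was 2.42-fold lower in WT and 3.84-fold lower in HH. *Srebf2* had 41.6, 37.9, 14.9 and 25.2 CPM, from 29 to 134 UMIs in a library, so that the WT and HH ratios of -1.48 and -0.59 have wide intervals (-2.11 to -0.89 and -1.07 to -0.12). The dissociation stress sum in these cells was 5531 and 7391 CPM on SCD and 15326 and 10188 CPM on HFD, and the mitochondrial share 4.10% and 4.15% on SCD and 3.40% and 3.39% on HFD, and their part in the result was not tested. In PP-dominant cells of WT 0 of 7 genes were past the fold in either direction (4.03% of all genes lower, 13.6% higher) and the set had 169.5 CPM on SCD and 179 CPM on HFD (log2 0.077, interval -0.16 to 0.31), beside a median of 0.16 over all 6546 genes, of which 33.0% were below 0. In HH PP-dominant cells the set had 216 CPM on SCD and 164 CPM on HFD (log2 -0.40, interval -0.59 to -0.21), beside a median of 0.087 over all genes. Whether the WT and HH sums differ in their ratio was not tested. *Hmgcs1* (53.3 and 27.4 CPM) and *Idi1* (20.5 and 8.14 CPM) were past the fold and lower in HH, 2 of 7 against 6.18% of all genes, and none was higher (11.2%). The dissociation stress sum of PP-dominant cells was 2031 and 2652 CPM on SCD and 7841 and 8285 CPM on HFD. In endothelial-like cells the summed set had log2 ratios of 0.069 in WT (interval -0.25 to 0.39) and -0.22 in HH (interval -0.58 to 0.15), and no gene tested was past the fold and lower, against 10.9% and 9.13% of all genes.

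**Figure D3:**
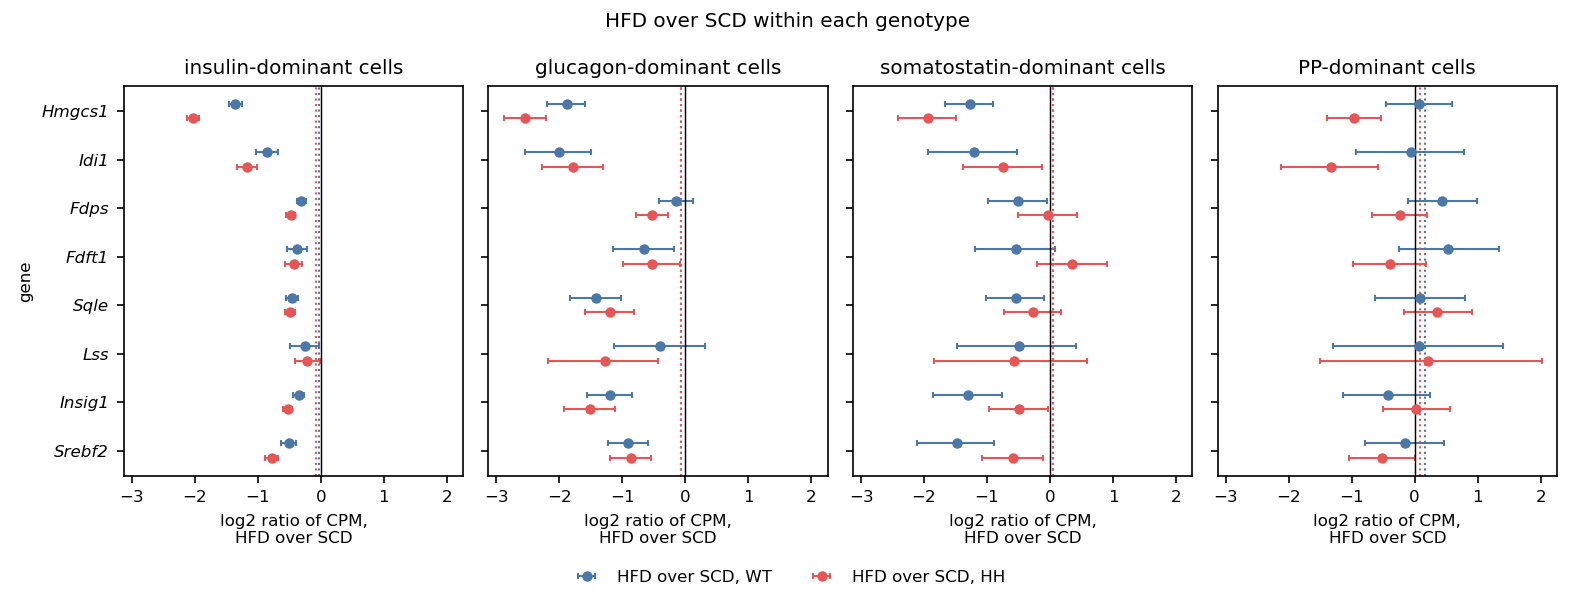
Log2 ratio of plain CPM, HFD over SCD (x axis), of the 8 genes in 4 hormone classes (PP is pancreatic polypeptide), for WT (blue) and HH (red). Bars are 95% intervals for counting error and dotted lines are the medians of all genes tested. *Hmgcs1* reached -1.89 in WT and -2.54 in HH in glucagon-dominant cells, and in WT PP-dominant cells it stood at 0.070.

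The difference between classes was then tested, with a class-by-diet term in the edgeR model over the sums of 4 hormone classes in 4 libraries. The term was added after these values had been seen. On the TMM-scaled log2 scale the HFD minus SCD difference was more negative in glucagon- than in insulin-dominant cells for 4 of 8 genes, against 1.64% of all 11635 genes. They were *Sqle* (-0.85 ± 0.15 SE, adjusted p of 8.9e-04), *Insig1* (-0.91 ± 0.18, adjusted p of 0.00198), *Idi1* (-0.88 ± 0.21, adjusted p of 0.0145) and *Hmgcs1* (-0.53 ± 0.15, adjusted p of 0.0425). *Sqle* passed without each library in turn, *Insig1* did not pass without WT SCD (adjusted p of 0.0646), *Idi1* passed only without HH HFD, and *Hmgcs1* passed in none of the 4 leave-outs (adjusted p from 0.0746 to 0.250). *Fdps* (0.041 ± 0.15), *Fdft1* (-0.19 ± 0.21), *Lss* (-0.57 ± 0.31) and *Srebf2* (-0.24 ± 0.17) did not pass. Against somatostatin-dominant cells 0 of 8 genes passed in either direction by edgeR, where 0.507% of all genes were more negative and 0.817% more positive, and 1 gene, *Insig1*, had an unadjusted p under 0.05 (-0.52 ± 0.21, p of 0.0185, adjusted p of 0.267). Between PP- and insulin-dominant cells *Hmgcs1* was the single gene of the set that passed, with a difference less negative in PP-dominant cells by 0.999 ± 0.19 (adjusted p of 0.00283, 1.44% of all genes more positive), and it did not pass without WT SCD (0.75, adjusted p of 0.104) or without HH HFD (0.87, adjusted p of 0.0856).

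The genotypes were compared within each diet, the question the study posed for the *Pax4* substitution. These ratios use the same 4 libraries as those between the diets. On SCD the 8 genes in insulin-dominant cells summed to 366 CPM in WT and 329 CPM in HH, a log2 ratio of -0.15 (interval -0.18 to -0.12), beside a median of -0.082 over all 6062 genes. None of the 7 genes tested was past the fold, against 2.05% of all genes lower and 0.313% higher. *Srebf2* had the lowest ratio of the set (39.6 and 32.1 CPM, log2 -0.30, interval -0.40 to -0.21). *Hmgcs1* had the highest (76.1 and 72.2 CPM, log2 -0.077, interval -0.14 to -0.013), and it stood at 0.011 with median-of-ratios size factors in place of the total.

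On HFD the set summed to 248 CPM in WT and 193 CPM in HH, a log2 ratio of -0.36 (interval -0.40 to -0.32), beside a median of -0.13 over all 5891 genes. *Hmgcs1* had 29.8 CPM in WT and 17.7 CPM in HH, 1.68-fold lower (log2 -0.75, interval -0.87 to -0.63), and *Srebf2* 27.8 and 18.7 CPM, 1.49-fold lower (log2 -0.57, interval -0.70 to -0.45). These 2 of the 6 genes tested were past the fold and lower, where 13.5% of all genes were, and none was higher, against 3.21%. *Insig1* (52.0 and 41.8 CPM, -0.31) and *Fdps* (63.8 and 51.5 CPM, -0.31) lay just inside the fold, *Sqle* (42.5 and 37.2 CPM, -0.19) and *Fdft1* (14.2 and 12.7 CPM, -0.16) nearer to the median of all genes. *Idi1* (10.6 and 7.25 CPM, log2 -0.55) and *Lss* (7.31 and 6.12 CPM, log2 -0.26) had means under 10 CPM and were not counted. All 8 ratios were below 0 under each scaling, from -0.62 to -0.029 with size factors.

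The scaling matters for the background of these ratios. With size factors the median of all genes moved from -0.13 to -0.0034 on HFD, and the share of calls that were lower went from 80.8% to 35.7%, while on SCD it went from 86.7% to 45.9%. With size factors 2 of the 6 genes tested were again past the fold and lower on HFD, where *Hmgcs1* had a log2 ratio of -0.62 and *Srebf2* of -0.44. With no upper bounds on UMIs and genes, which raised the share of barcodes that passed in the WT HFD library to 42.3%, the summed ratio was -0.33. Insulin-dominant cells of HH HFD had fewer genes per cell (median 3415 against 4076 in WT HFD), less summed dissociation stress (1527 against 2605 CPM) and more transcripts of other hormones (1468 against 626 CPM). Of 4 ductal markers all were detected there, summing to 18.5 CPM, against 2 of 4 and 4.35 CPM in WT HFD, where *Sox9* and *Cftr* were at 0. Of 6 markers of insulin cells 5 were lower in HH HFD, such as *Mafa* (195 against 311 CPM) and the glucose transporter gene *Slc2a2* (154 against 302 CPM), and *Iapp* was higher. Among markers of glucagon cells, *Gc* (147 against 57.6 CPM), *Ttr* (2730 against 1341 CPM) and *Irx2* (1.16 against 0.83 CPM) were higher in HH HFD. These measures moved with the genotype ratio, and their part in the result was not tested. Among cells with 20000 to 30000 UMIs, 1300 in HH HFD and 436 in WT HFD, the summed ratio was -0.51 (interval -0.58 to -0.45), that of *Hmgcs1* -1.03 and that of *Srebf2* -0.92, an alternative chosen after the values were seen. In those cells *Insig1* (-0.46) and *Fdps* (-0.45) also lay beyond a log2 ratio of 0.32 from 0, and *Sqle* (-0.25) and *Fdft1* (-0.21) did not.

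**Figure D4:**
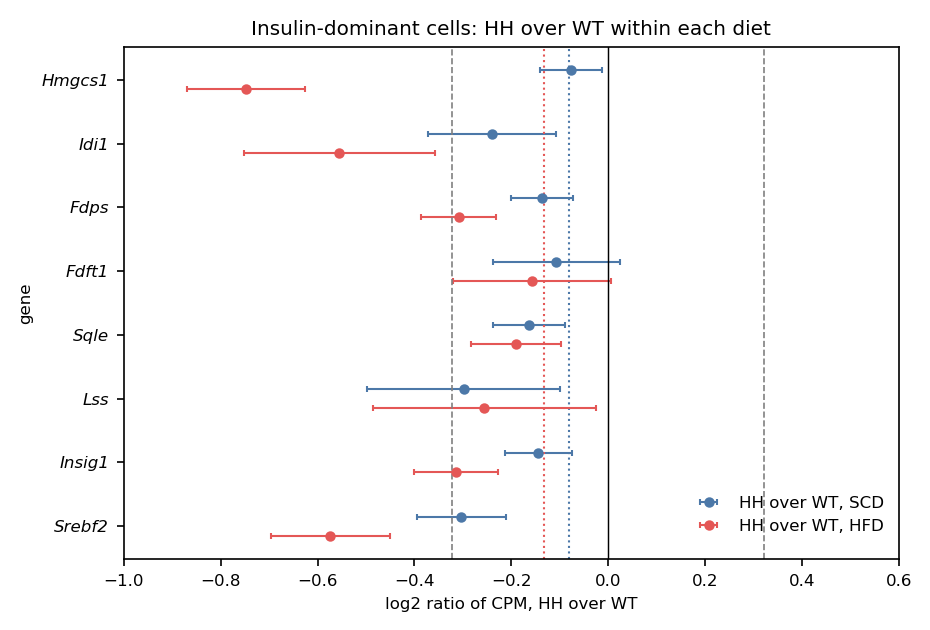
Log2 ratio of plain CPM, HH over WT (x axis), in insulin-dominant cells on SCD (blue) and HFD (red), with 95% intervals for counting error. Dashed lines mark a log2 ratio of 0.32 either way and dotted lines the median of all genes. On HFD *Hmgcs1* (-0.75) and *Srebf2* (-0.57) lay outside the fold, and on SCD no gene did.

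In the other classes the genotype ratios were less uniform. In glucagon-dominant cells the summed ratio was -0.0063 on SCD (interval -0.10 to 0.089), with none of 7 genes past the fold (3.07% of all genes lower, 1.81% higher), and -0.20 on HFD (interval -0.35 to -0.046). *Hmgcs1* (26.4 and 18.4 CPM, log2 -0.53) and *Insig1* (21.02 and 14.4 CPM, log2 -0.54) were past the fold and lower in HH on HFD there, 2 of 6 tested against 3.45% of all genes, and none was higher (2.68%). In somatostatin-dominant cells on SCD *Fdps* was lower in HH (42.5 and 31.3 CPM, log2 -0.44), 1 of 7 tested against 3.37% of all genes, and none was higher (2.23%). On HFD *Hmgcs1* was lower in HH (37.6 and 21.2 CPM, log2 -0.83, interval -1.38 to -0.28) and *Srebf2* higher (14.9 and 25.2 CPM, log2 0.75, interval 0.085 to 1.45), each 1 of 7 tested against 4.16% of all genes lower and 1.91% higher. In PP-dominant cells on SCD *Hmgcs1* (35.5 and 53.3 CPM, log2 0.59) and *Fdft1* (13.5 and 23.9 CPM, log2 0.82, from 27 and 56 UMIs) were higher in HH, 2 of 7 against 3.34% of all genes, and none was lower (2.36%). On HFD none of the 7 was past the fold, against 5.08% lower and 1.8% higher. In endothelial-like cells *Fdft1* was higher in HH on SCD, from 2 and 10 UMIs, against 3.33% of all genes higher, and no other gene tested was past the fold on SCD (3.44% lower) or HFD (4.54% lower, 5.74% higher). The summed ratio of the set there was -0.025 on SCD (interval -0.41 to 0.36) and -0.32 on HFD (interval -0.60 to -0.028). Over all genes the median in endothelial-like cells was 0.014 on each diet. The summed ratio in somatostatin-dominant cells was -0.25 on SCD (interval -0.38 to -0.12) and 0.092 on HFD (interval -0.12 to 0.31). That in PP-dominant cells was 0.35 on SCD (interval 0.15 to 0.55) and -0.12 on HFD (interval -0.34 to 0.096). The HFD ratio of *Hmgcs1* was below 0 in all 4 hormone classes, at -0.75, -0.53, -0.83 and -0.44, the last with an interval that included 0 (-0.96 to 0.074). Depth moved with genotype in these classes on HFD, where glucagon-dominant cells had a median of 9997.5 UMIs and 2507 genes in HH against 16096.5 UMIs and 3445 genes in WT. Somatostatin-dominant cells had 7644 UMIs and 2570.5 genes against 12451 UMIs and 3601 genes, and a dissociation stress sum of 10188 against 15326 CPM, and PP-dominant cells had 14282.5 UMIs and 2822.5 genes against 22833 UMIs and 3951 genes. On SCD the gaps were smaller, at 2709 against 2957 genes in glucagon-, 2889.5 against 3145 in somatostatin- and 2945 against 3122 in PP-dominant cells. The part of these measures in the ratios was not tested.

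Of 41 other genes of the pathway, 15 belong to synthesis. Of the 15 other synthesis genes 7 had a mean of at least 10 CPM in insulin-dominant cells. On HFD 5 of the 7 were past the fold and lower in WT and 4 in HH (13.0% and 17.9% of all genes), none was higher, and the medians of the 7 were -0.35 and -0.46. *Msmo1*, a sterol C4 methyl oxidase, had 84.0 CPM on SCD and 46.4 CPM on HFD in WT (log2 -0.85) and 77.7 and 31.7 CPM in HH (-1.29), the lowest ratios of the 7. *Ebp*, a sterol isomerase, had 28.0 and 29.4 CPM in WT (0.074) and 30.5 and 34.9 CPM in HH (0.19). In glucagon-dominant cells 4 of 7 other synthesis genes tested in WT and 4 of 8 in HH were past the fold and lower (18.2% and 18.0% of all genes), among them *Msmo1* with 98.9 CPM on SCD and 20.6 CPM on HFD in WT (log2 -2.27) and 97.0 and 17.1 CPM in HH (-2.50). In each genotype 1 was past the fold and higher there (7.85% and 9.09% of all genes), *Pmvk*, phosphomevalonate kinase, with 27.7 CPM on SCD and 41.6 CPM on HFD in WT (log2 0.59) and 31.1 and 39.8 CPM in HH (0.36).

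Of 7 genes of uptake and transfer, 1 of the 3 tested in WT insulin-dominant cells and 1 of the 2 tested in HH were past the fold and lower on HFD, where 13.0% and 17.9% of all genes were (6.56% and 7.09% higher). The same shares of all genes apply to the counts of the next lists. The gene of uptake and transfer called in WT was *Stard4*, a sterol transfer protein named after its values were seen (16.1 and 6.15 CPM, log2 -1.39). The HH values of *Stard4* (14.1 and 3.88 CPM, log2 -1.86) had a mean under 10 CPM. The list of 5 regulators holds *Scap*, *Insig2*, *Srebf1* and the protease genes *Mbtps1* and *Mbtps2*, and none of the 4 tested was past the fold between the diets in insulin-dominant cells of either genotype. Of 4 efflux and storage genes tested, *Abca1*, the sterol exporter, was lower on HFD in WT (38.9 and 24.0 CPM, log2 -0.70) and HH (31.7 and 23.7 CPM, log2 -0.42), and *Nr1h2*, which encodes the sterol sensor LXRβ, was higher on HFD in WT (12.0 and 17.2 CPM, log2 0.52). Of the fatty acid and related SREBP targets, *Scd2*, a stearoyl-CoA desaturase, was past the fold and lower in both genotypes (log2 -0.54 and -0.49), 1 of 4 tested in WT and, with *Acly* (log2 -0.38), 2 of 3 in HH.

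Between genotypes on HFD, 2 of 7 synthesis genes tested, 1 of 2 of uptake and transfer and 1 of 5 of efflux and storage were past the fold and lower in HH insulin-dominant cells, where 13.5% of all genes were. None of the 4 regulators or of the 3 other SREBP targets tested was, and no gene of the wider list was past the fold and higher (3.21% of all genes). The genes past the fold included *Msmo1* (46.4 and 31.7 CPM, log2 -0.55) and *Nr1h2* (17.2 and 12.2 CPM, log2 -0.49). The medians of the synthesis and the uptake genes tested were -0.15 and -0.33, beside -0.31 for the members. The highest ratios of the wider list on HFD were those of *Ebp* (0.24), *Insig2* (0.14), a second retention protein of SREBP, and *Pmvk* (0.089), none past the fold. On SCD *Scd2* alone was past the fold (42.6 and 33.3 CPM, log2 -0.35), followed by *Abca1* and *Sc5d*, a sterol desaturase (both -0.30). *Ebp* (0.13), *Fasn*, fatty acid synthase (0.060), and *Acly*, ATP citrate lyase (0.035), were the highest on SCD.

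The set was last examined cell by cell. Each insulin-dominant cell was thinned to 10000 UMIs, which left out 4, 2, 4 and 15 shallower cells. A cell on SCD then held a mean of 3.82 (WT) and 3.48 (HH) UMIs of the 8 genes, with an SD over cells of 2.59 and 2.42. A cell on HFD held 2.60 (WT) and 2.03 (HH), with an SD of 1.97 and 1.77. The share of cells with 0 such UMIs was 5.83%, 7.03%, 10.9% and 18.6%, and that with 5 or more was 33.4%, 29.9%, 14.0% and 8.65%. The cells with most UMIs differed too, since the upper decile began at 7 UMIs in both SCD libraries, at 5 in WT HFD and at 4 in HH HFD. Most of these genes were also found in endothelial-like cells, where *Sqle* and *Lss* had few UMIs, and no cell type served as a background for these shares. The estimate of free RNA from insulin UMIs in endothelial-like cells was 2.38% to 3.96% of UMIs. Without *Hmgcs1*, the per-cell log2 ratio of HH over WT was -0.17 on SCD and -0.31 on HFD, against -0.13 and -0.36 with it, and without thinning the ratios of the whole set were -0.14 and -0.33.

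*Hmgcs1* was the most uneven gene of the set between cells. Its variance over its mean was 1.80, 1.64, 1.52 and 1.38 in the 4 libraries, the highest of the 8 in each library. That of *Fdps* came next in each, between 1.24 and 1.42, and that of *Lss*, *Srebf2* and *Fdft1* lay between 0.97 and 1.18. Its mean was 0.784, 0.778, 0.313 and 0.193 UMIs per thinned cell. Pairs of the 8 genes were hardly correlated across cells of a library, with median r of 0.03 to 0.04 over 28 pairs and at most 0.14. Such values come from sparse counts of cells that share library and depth, and they are no finding.

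**Figure D5:**
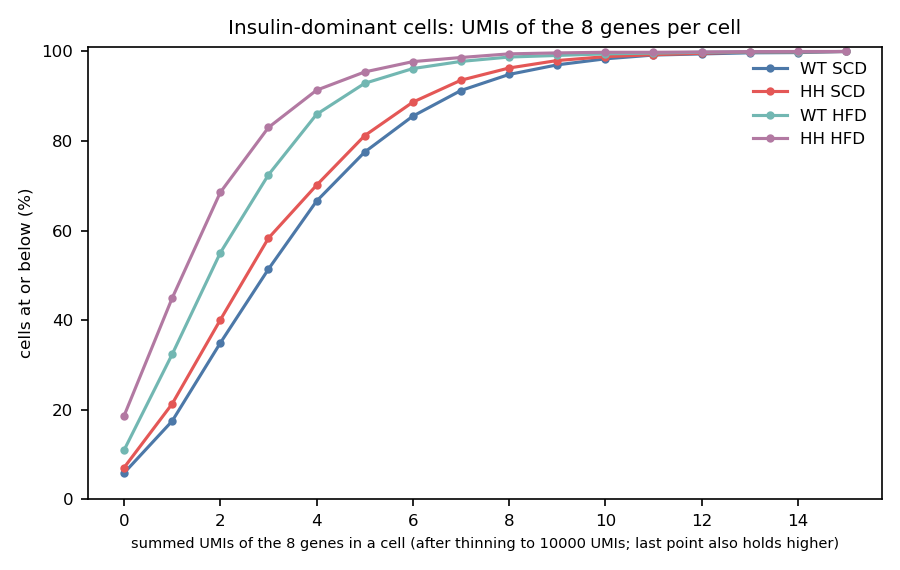
Cumulative share of insulin-dominant cells (y axis, %) by the summed UMIs of the 8 genes in a cell thinned to 10000 UMIs (x axis), 1 line per library. The first points stand at 5.83% (WT) and 7.03% (HH) on SCD and at 10.9% (WT) and 18.6% (HH) on HFD, and the HFD lines run above the SCD lines.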

How the data were processed

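Islets were profiled with the 10x Genomics 3′ v3.1 kit, 1 library per group. As the labels and the methods state, the authors aligned reads to GRCm38 (mm10) with Cell Ranger (version 6.0) and deposited filtered matrices of UMI counts per gene and barcode. These counts were not normalised. The 8 genes and the gene lists were chosen with earlier results of these data known.

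Barcodes were kept with under 10% mitochondrial UMIs, 3000 to 50000 UMIs and 2000 to 5000 genes. The cells with the highest Scrublet scores (scanpy 1.11.5) were removed as doublets (0.8% expected for every 1000 cells, which gave 81, 80, 33 and 154 cells), since the automatic threshold marked 40, 46, 9 and 7. A cell was assigned to a hormone when it held at least 60% of the UMIs of *Ins1* with *Ins2*, *Gcg*, *Sst* and *Ppy*, which together made at least 5% of the cell, and under 3 markers of a non-endocrine type were found. Endothelial-like cells had hormones under 5% and at least 3 endothelial markers. The class names rest on these rules alone, and the study's own cell annotation was not used here.

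UMIs were summed by class and library. Classes were compared with edgeR 4.0.16 (TMM, quasi-likelihood test, library as a term, R 4.3.3), with Benjamini-Hochberg adjustment over all genes tested and a threshold of 0.05. Each combination of genotype and diet has 1 library, so log2 ratios of CPM between single libraries, with 95% exact conditional binomial intervals, are given without a test. A model with additive terms for diet and genotype, which pairs of libraries would allow, was not fitted within a class. Intervals, and the limit of 3 counts for a count of 0, cover counting error only. Both procedures were run on simulated counts. Those for the ratios were Poisson counts, the model the intervals assume, so that run cannot show how libraries vary. Those for the class test had a fixed spread for all genes.

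The genes named are the 8, the 3 highest and 3 lowest HH over WT ratios of a wider list of 41 genes within each diet, and the 10 genes most like the set, of which some are not reported here. Other genes are named where a count of 5 or fewer fell outside this rule, after their values were seen. Alternatives were other scalings, cell filters, doublets kept, a leading hormone at 90%, subtraction of ambient RNA, other minimums and folds, DESeq2 1.42.0, the model without the library term, each library left out, and other thinning depths. The class-by-diet term, cells of like depth and the set without *Hmgcs1* were added after the values were seen. Promoter windows are from RefSeq and positions from GENCODE M21, which may not be the annotation the authors used.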

Additional observations from a re-analysis of the deposited data

Results flagged for a closer look

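The class-by-diet term of edgeR's quasi-likelihood fit singled out 5 values, each a gene whose HFD minus SCD difference was not the same in 2 hormone classes. Between glucagon- and insulin-dominant cells the log2 difference of the differences was -0.53 for *Hmgcs1*, -0.88 for *Idi1*, -0.85 for *Sqle* and -0.91 for *Insig1*, so that the lower level on HFD was more pronounced in glucagon-dominant cells. Between PP- and insulin-dominant cells it was 0.999 for *Hmgcs1*, which was less negative in PP-dominant cells. Without 1 library in turn, the glucagon value of *Hmgcs1* passed the threshold in 0 of 4 fits, that of *Idi1* in 1, that of *Sqle* in 4 and that of *Insig1* in 3, and the PP value of *Hmgcs1* in 2 of 4. In the same order the values ran over -0.60 to -0.46, -1.17 to -0.61, -0.89 to -0.80 and -1.11 to -0.74 for the glucagon values and 0.75 to 1.33 for the PP value. Each diet has 2 libraries that also differ in genotype, and the term was chosen after the values were seen.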

How the results depend on the processing

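In insulin-dominant cells the summed log2 ratio of HH over WT kept its sign under every alternative. On SCD it moved from -0.15 to -0.10 with CPM without hormone and mitochondrial genes and to -0.066 with median-of-ratios size factors. On HFD it moved from -0.36 to -0.23 with size factors and to -0.51 in cells of like depth. The HFD over SCD ratio went from -0.56 to -0.62 in WT with the looser cell filter and from -0.77 to -0.72 in HH with size factors. *Hmgcs1* on SCD reversed to 0.011 with size factors. The cause of these shifts was not tested. Counts of the set past the fold and lower were 1 instead of 0 for HH over WT on SCD with the looser filter (0 instead of 2 on HFD with a minimum of 50 CPM, by fewer genes tested, and 1 with a fold of 1.5). For HFD over SCD they were 3 of 4 tested in WT and 2 of 2 tested in HH with the minimum of 50 CPM. With a fold of 1.5 they were 2 of 7 in WT and 3 of 7 in HH. The share of all genes past the fold and lower for HH over WT went from 2.05% to 0.742% on SCD and from 13.5% to 4.19% on HFD with size factors, and with a fold of 1.5 it was 0.214% and 1.68% (4.21% and 6.34% for HFD over SCD in WT and HH). The lower share of calls for HFD over SCD in HH went from 71.7% to 58.9% with size factors.

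Between classes, the count of genes higher in glucagon- than in somatostatin-dominant cells was 5 with no filter on low counts, 1 without the library term and 2 to 5 when 1 library was left out. Over the other 3 contrasts it stayed within 1.5 times, from 5 to 6, 7 to 8 and 4 to 6 without 1 library. DESeq2 gave 5, 7, 5 and 2. For the class-by-diet term, without 1 library the genes more negative in glucagon-dominant cells numbered 1 to 3 instead of 4 and those in somatostatin-dominant cells 0 to 1, and those more positive in PP-dominant cells 0 to 1. No paired analysis was possible because the labels give no replicate number that pairs mice, and the library term of the class model takes that place. A comparison of the diets with genotype as a term, which the 4 libraries would allow, was not fitted. The depth limits *Lss* and *Idi1*, and PP-dominant cells, where 6 to 125 UMIs stood behind each gene.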

Other observations

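Across insulin-dominant cells within a library, the genes whose level was most like the summed set included *Mt1*, *Msmo1*, *Malat1*, mt-Atp6, mt-Co2, *Ftl1*, *Camk2n1*, mt-Co1 and *Mt2*, of 6005 genes. Their Pearson r, as a median over the 4 libraries, ran from 0.19 for *Mt1*, a metallothionein, to 0.14 for *Mt2*. *Msmo1* (0.17) belongs to the same pathway, and *Scd2*, another SREBP target, stood at rank 16 (0.13). The r of *Mt1* was 0.26 and 0.28 on SCD and 0.10 and 0.12 on HFD, and that of *Msmo1* lay between 0.15 and 0.20 in all 4 libraries. The points are cells that share a library and a depth, and mitochondrial and nuclear transcripts such as mt-Co1 and *Malat1* also vary with the state of a cell, so these r values describe the libraries and carry no test.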
